A study of Mus musculus with 4 samples.

Results

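The VEGF ligands, receptors and co-receptors were followed in RNA sequencing of brain endothelial cells from newborn mice with and without a conditional deletion of PD-1. They comprise 10 genes chosen by symbol, of 21578 genes in the deposited tables: the ligands Vegfa, Vegfb, Vegfc and Pgf, the receptors Flt1 (VEGFR1), Kdr (VEGFR2) and Flt4 (VEGFR3), and the co-receptors Nrp1, Nrp2 and Plxnd1. All 10 were found, and 9 of them passed the filter on low counts and were tested. The controls were Pd1fl/fl mice, which carry the floxed Pd1 allele, and the knockouts were Pd1cKO-Tie2 mice, the same floxed allele deleted by a Tie2-Cre transgene. All mice were of strain C57BL/6 at postnatal day 0. Each genotype gave 2 libraries, and nothing in the labels says whether a library came from 1 animal or from a pool, so the p-values measure only the spread between these libraries. A Tie2 promoter drives Cre in blood-forming cells too, so the deletion may not be confined to endothelium. Pd1cKO-Tie2 replicate 2 is named by its column, whose number matches no sample label, and is known by its genotype alone. The study's isolation protocol sorted CD31- and CD45-stained cortical cells and then cultured them, and whether the sequenced cells were cultured is not given in the sources used here.

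VEGF signaling is the main growth signal of blood vessels. In the developing brain, VEGF-A made by neural cells binds VEGFR2 on endothelial cells and drives sprouting and division, while VEGFR1 binds the same ligand strongly with weak kinase activity and acts largely as a trap. VEGF-C acts through VEGFR3 and VEGFR2, and VEGF-B and placental growth factor bind VEGFR1. Neuropilins hold VEGF for the receptors and also bind class 3 semaphorins, which signal through plexins such as Plexin-D1. The study measured VEGFR mRNA in brain by RT-qPCR and discussed the VEGF pathway, so the comparison asks which of these genes differed between the genotypes in the endothelial cells.

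The sequences tied to the most abundant receptor are shown first, because the study also measured it by RT-qPCR. Both primers that the study names Vegfr2 lie in all 3 annotated transcripts of Kdr (GENCODE M21, GRCm38). The forward primer lies at chr5:75972299-75972318 in exon 3, the reverse primer at chr5:75968749-75968769 in exon 4, and the product is 179 bases. They cover only these 2 exons, whereas a read count covers all exons of the gene.
Vegfr2 forward: ctggagcctacaagtgctcg
Vegfr2 reverse: gaggtttgaaatcgaccctcg

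The 250 bases before the RefSeq start (GRCm38.p6, reverse strand) are shown for Kdr and Flt1, the most abundant receptors, and for Vegfa, the scarcest member. Capitals mark any match, on either strand, to 6 motifs. GCGTG and the related letters ACGTG are cores of hypoxia response elements. The letters CGGAAG and the variant spelled AGGAAG are cores of ETS factor sites. A GC box was searched as GGGCGG and a TATA box as TATAAA, and matches may overlap. The windows are chr5:75978456-75978705 for Kdr, chr5:147726012-147726261 for Flt1 and chr17:46032378-46032627 for the upstream start of Vegfa.
Kdr: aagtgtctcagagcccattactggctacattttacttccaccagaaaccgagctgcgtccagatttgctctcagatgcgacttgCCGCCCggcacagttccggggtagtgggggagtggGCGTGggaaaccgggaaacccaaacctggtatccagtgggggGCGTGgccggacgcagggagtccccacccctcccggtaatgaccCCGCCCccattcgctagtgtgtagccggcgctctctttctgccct
Flt1: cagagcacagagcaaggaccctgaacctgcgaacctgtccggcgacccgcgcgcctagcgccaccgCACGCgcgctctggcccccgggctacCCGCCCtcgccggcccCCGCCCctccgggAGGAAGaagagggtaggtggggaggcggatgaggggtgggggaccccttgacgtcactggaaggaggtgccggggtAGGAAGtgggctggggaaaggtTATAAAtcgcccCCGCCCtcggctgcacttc
Vegfa: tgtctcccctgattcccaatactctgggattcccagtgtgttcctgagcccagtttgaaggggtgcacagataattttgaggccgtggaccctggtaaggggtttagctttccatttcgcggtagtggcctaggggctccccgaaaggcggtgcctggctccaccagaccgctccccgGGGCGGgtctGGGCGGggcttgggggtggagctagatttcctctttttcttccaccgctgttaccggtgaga

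Of these windows, Kdr held 2 matches to GCGTG and 2 to the GC box. Flt1 held 1 to GCGTG, 2 to AGGAAG, 3 to the GC box and 1 to the TATA box, and Vegfa held 2 to the GC box. Across all 12 promoters of the 10 genes, 11 held a GC box, 8 held GCGTG, 3 held AGGAAG, 1 held ACGTG, 1 held the TATA box and 0 held CGGAAG. The ACGTG match and 1 GCGTG match lay in the window of a downstream Vegfa start (chr17:46025164-46025413), inside the annotated gene. Such a window can hold transcribed sequence. The Pgf, Nrp1 and Flt4 windows also lay inside the annotated bounds of their genes. Of all 32851 promoters of this length, 32.7% held the GC box, 28.2% GCGTG, 16.6% ACGTG, 29.5% AGGAAG, 13.6% CGGAAG and 12.4% the TATA box. The member promoters were also rich in G and C, with 59.2% to 76.4% against a median of 52.4% in all promoters. A match is a description of the letters and says nothing of binding.

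The libraries held between 13714374 and 24146115 counts, the deepest being Pd1cKO-Tie2 replicate 1. The deleted gene Pdcd1, which encodes PD-1, was counted 32 times in Pd1fl/fl replicate 1 and never elsewhere, Pd1fl/fl replicate 2 included, so its counts do not separate the genotypes. Levels of 1 gene across libraries are given as CPM, counts scaled to library size with edgeR's TMM factors, and levels of different genes as RPKM, the same per kilobase of exon. Of 15909 tested genes, 640 (4.02%) passed the criterion of the study's methods, a fold of 2 or more and an unadjusted p up to 0.05. Of these, 224 (1.41%) were higher and 416 (2.61%) lower in Pd1cKO-Tie2, a balance that turned to 486 higher and 391 lower without Pd1fl/fl replicate 2. In the quasi-likelihood test of edgeR, 0 genes had an adjusted p under 0.05 (smallest 0.735) and 1016 (6.39%) an unadjusted one. DESeq2 gave 114 genes with an adjusted p under 0.05, and the likelihood ratio test of edgeR gave 82. All 12 endothelial markers were present. Their summed level was 11016 and 9943 CPM in Pd1fl/fl and 12983 and 13984 CPM in Pd1cKO-Tie2.

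Per length, the receptors stood above the ligands in every library. Kdr led with 118 to 145 RPKM, and its lowest library lay above the highest library of Flt1, at 37.1 to 50.7 RPKM. Flt1 was above Plxnd1 (22.0 to 37.7 RPKM) within each of the 4 libraries, although their ranges over both genotypes touched. Plxnd1 and Nrp1 (22.1 to 34.4 RPKM) changed places between libraries and did not differ beyond their spread. Flt4 followed at 9.37 to 14.1 RPKM, clear of Nrp1 above it and of Nrp2 (4.94 to 8.47 RPKM) under it. Vegfc, at 3.88 to 8.78 RPKM, was under Nrp2 in 3 of the 4 libraries and above it in Pd1cKO-Tie2 replicate 1, and was the only ligand above 3 RPKM. Vegfb (0.821 to 2.92 RPKM) and Pgf (0.580 to 1.70 RPKM) overlapped each other, and Vegfa lay lowest at 0.0324 to 0.120 RPKM. With the longest transcript as the length, Nrp1 passed Plxnd1 (mean 77.6 against 31.6 RPKM), and the order of the other genes was the same.

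**Figure D1:**
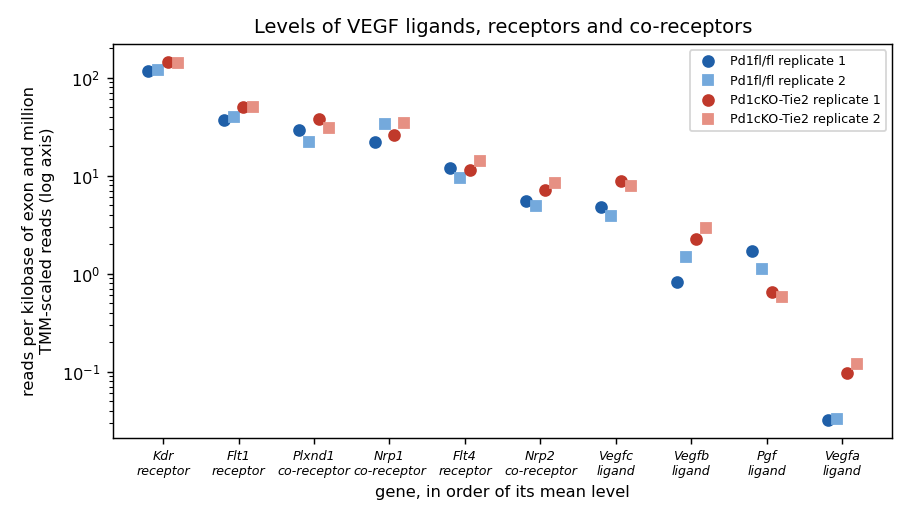
Level of each of the 10 genes in each library, as reads per kilobase of exon and CPM unit (RPKM) on a log axis, with genes in order of their mean. Kdr is highest in all 4 libraries at 118 to 145, and Vegfa is lowest at 0.0324 to 0.120.

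Apart from Vegfc, the ligands were scarce in these cells. Vegfa (ENSMUSG00000023951, chr17:46016993-46032369), the main angiogenic ligand, had 2 counts in each Pd1fl/fl library, and 10 and 7 counts in Pd1cKO-Tie2. This is 0.139 and 0.141 CPM against 0.419 and 0.513 CPM. Both Pd1cKO-Tie2 libraries lay above both controls, but the counts are at the edge of detection: the exact 95% Poisson intervals were 0.0168 to 0.501 CPM in Pd1fl/fl replicate 1 and 0.201 to 0.770 CPM in Pd1cKO-Tie2 replicate 1, and they overlap. Summed over libraries, 17 counts against 4 give a ratio of 3.24 with an exact interval of 1.06 to 13.2, which covers counting error only and not the spread between libraries. Vegfa did not pass the filter and has no call. In the fits that kept it, its log2 fold change was 1.69 (standard error 3.33) without the filter and 1.73 (standard error 3.43) in DESeq2.

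Vegfc (ENSMUSG00000031520, chr8:54077606-54187096), the ligand of VEGFR3, was the most abundant ligand. Its reads numbered 170 and 135 in the controls and 514 and 265 in the knockouts, or 11.8 and 9.51 against 21.5 and 19.4 CPM. The genotypes did not overlap, and the difference was larger than the SD of either (10.7 ± 1.61 and 20.5 ± 1.49 CPM, SD, n = 2). The fold was 1.92 (log2 0.94, standard error 0.38). It lay just short of both limits of the criterion, with an unadjusted p of 0.0514 and an adjusted p of 0.786 in edgeR.

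Vegfb (ENSMUSG00000024962, chr19:6982473-6987651) was counted 19 and 34 times in the controls and 86 and 64 times in the knockouts. In CPM this is 1.32 and 2.40 against 3.60 and 4.69. The libraries did not overlap between genotypes, yet the fold of 2.23 carried a standard error of 1.00 on the log2 scale and an adjusted p of 0.995 in edgeR. Pgf (placental growth factor, ENSMUSG00000004791, chr12:85166635-85177790) was the member that ran the other way. Its reads numbered 71 and 46 in the controls and 45 and 23 in the knockouts, or 4.93 and 3.24 against 1.88 and 1.68 CPM. Both Pd1cKO-Tie2 libraries lay below both controls, with a log2 fold change of -1.19 (standard error 0.99, adjusted p = 0.991, edgeR). Neither ligand met the criterion.

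**Figure D2:**
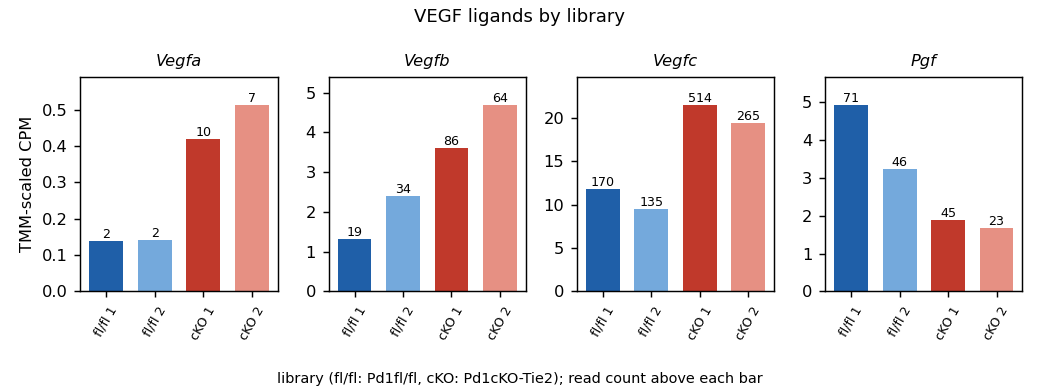
TMM-scaled CPM of the 4 ligands in each library as bars from 0, with the read count above each bar. Vegfa, Vegfb and Vegfc are higher and Pgf is lower in both Pd1cKO-Tie2 libraries than in both Pd1fl/fl libraries, from 2 to 514 counts.

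Among the receptors, Kdr and Flt1 were modestly higher in Pd1cKO-Tie2 cells with TMM scaling, a direction that flipped for Kdr (log2 -0.089) when libraries were scaled to endothelial markers. Kdr (ENSMUSG00000062960, chr5:75932827-75978458), the signaling receptor of VEGF-A, ranked 77 by mean CPM among the tested genes, a rank that takes no account of gene length. Its reads numbered 15380 and 15164 in the controls and 31230 and 17439 in the knockouts, the largest from the deepest library. After scaling this is 1067 and 1068 against 1307 and 1277 CPM. The controls were nearly equal and both knockout libraries lay above them, at means of 1068 and 1292 CPM. The fold was 1.21 (log2 0.28, standard error 0.10), and the adjusted p was 0.753 in edgeR.

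Flt1 (ENSMUSG00000029648, chr5:147561604-147726011), the trapping receptor, was counted 7218 and 7663 times in the controls and 16346 and 9310 times in the knockouts. This is 501 and 539.8 against 684 and 682 CPM, again with no overlap. The fold was 1.31 (log2 0.39, standard error 0.12), with the smallest p of the members (0.0205, edgeR, rank 431 of all tested genes) and an adjusted p of 0.735. The deposited counts are per gene, so soluble and membrane forms of Flt1 cannot be told apart. Flt4 (ENSMUSG00000020357, chr11:49609263-49652739), the receptor of VEGF-C and a tip cell gene, overlapped between genotypes. It was at 99.1 and 77.1 CPM in Pd1fl/fl and at 93.2 and 116 CPM in Pd1cKO-Tie2, with a log2 fold change of 0.25 (standard error 0.23).

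Of the co-receptors, Nrp2 had the largest fold with all 4 libraries, but not without Pd1cKO-Tie2 replicate 2 (log2 0.45, against 0.56 for Plxnd1). Nrp2 (ENSMUSG00000025969, chr1:62703285-62818695), a neuropilin that favours VEGF-C and Sema3F, was counted 944 and 830 times in the controls and 2018 and 1370 times in the knockouts. This is 65.5 and 58.5 against 84.5 and 100.3 CPM, without overlap. The fold was 1.49 (log2 0.58, standard error 0.22), with an adjusted p of 0.753 in edgeR. Plxnd1 (ENSMUSG00000030123, chr6:115954811-115995005), the receptor of Sema3E, was at 215 and 161 CPM in Pd1fl/fl and at 275 and 221 CPM in Pd1cKO-Tie2. These libraries did not overlap but the lower knockout and the higher control lay close together, and the log2 fold change was 0.40 (standard error 0.21, adjusted p = 0.906, edgeR). Nrp1 (ENSMUSG00000025810, chr8:128358604-128503363), the neuropilin that joins VEGFR2, was at 216 and 325 CPM in Pd1fl/fl and at 253 and 336 CPM in Pd1cKO-Tie2. Its libraries overlapped and its spread within a genotype exceeded the difference between them (log2 0.12, standard error 0.25). Its direction turned to -0.14 without Pd1fl/fl replicate 1 and to -0.090 without Pd1cKO-Tie2 replicate 2. A microRNA gene, Mir1903, shares 80 bases of its exons on the same strand, and the other members share no exon bases with another gene.

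By count, 0 of the 9 tested members met the criterion, where 4.02% of all tested genes did. Both Pd1cKO-Tie2 libraries lay above both controls for 6 of the 9 and below them for 1, against 17.7% and 18.1% of all tested genes. The fitted change was above 0 for 8 of the 9, against 49.6% of all tested genes, and their median log2 fold change was 0.39, beside -0.0038 over all tested genes. Flt1, Kdr and Nrp2, 3 of the 9, had an unadjusted p under 0.05 in edgeR, against 6.39% of all tested genes, and 0 had an adjusted p under 0.05 in edgeR or DESeq2. That count of 3 was 4 in limma-voom, 3 in DESeq2, 1 with library size scaling only, 1 without either Pd1fl/fl library and 0 without either Pd1cKO-Tie2 library. The members share libraries and cells, so they are not independent of each other. With 2 libraries against 2, an exact permutation test of a single gene cannot go below p = 0.3333.

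The endothelial markers were higher as well. All 12 of them (Pecam1, Cdh5, Cldn5, Tek, Tie1, Esam, Eng, Erg, Egfl7, Ramp2, Robo4 and Emcn) lay higher in both Pd1cKO-Tie2 libraries, against 17.7% of all tested genes. Their median log2 fold change was 0.36. Of the 12, 0 met the criterion, against 4.02% of all tested genes. In bulk samples, fewer cells of a type and less RNA per cell cannot be told apart. The libraries were therefore also scaled to the summed counts of these 12 markers, which moved the median of all tested genes to -0.37. On that scale Kdr was at -0.089 (standard error 0.11), Flt1 at 0.025 (standard error 0.14), Plxnd1 at 0.055 (standard error 0.21), Flt4 at -0.12 (standard error 0.21) and Nrp1 at -0.26 (standard error 0.27). Against this marker sum these 5 genes thus differed by less than their standard error, and the direction of Kdr, Flt4 and Nrp1 flipped. Cldn5 was the largest part of the sum. It gave 5516 of 11016 and 4774 of 9943 CPM in Pd1fl/fl, and 6562 of 12983 and 7008 of 13984 CPM in Pd1cKO-Tie2. The scale therefore leans on 1 gene, and a scale without Cldn5 was not fitted. Cldn5 had a log2 fold change of 0.40, beside the median of 0.36 of the 12 markers. Whether the scale stands for endothelial transcripts at large was not tested. Nrp2 (0.21, standard error 0.21), Vegfb (0.76, standard error 1.00) and Vegfc (0.59, standard error 0.39) stayed above 0, and Pgf stayed below (-1.54, standard error 0.96). On this scale 0 of the 9 had an adjusted or an unadjusted p under 0.05 in edgeR.

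**Figure D3:**
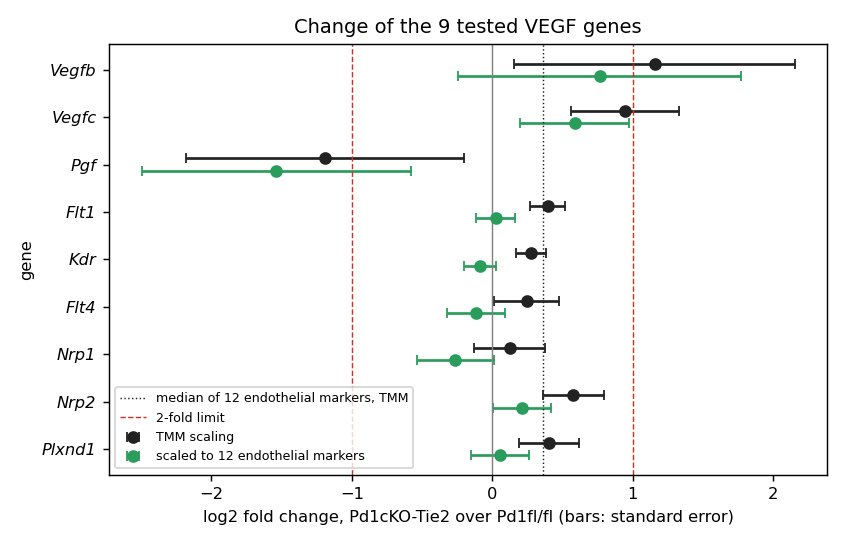
Log2 fold change of the 9 tested genes (x axis, Pd1cKO-Tie2 over Pd1fl/fl, bars are standard errors) after TMM scaling in black and after scaling to 12 endothelial markers in green. All 9 genes move down: Kdr from 0.28 to -0.089, Flt1 from 0.39 to 0.025, Vegfc from 0.94 to 0.59 and Pgf from -1.19 to -1.54.

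Markers of other cells also differed. Radial glia and astrocyte markers were lower without overlap for 6 of 9, against 18.1% of all tested genes. Of these 9, 2 met the criterion as lower (Fabp7 and Hes5), against 2.61% of all tested genes. The 9 markers had a summed level of 887 and 896 CPM in Pd1fl/fl and 579.98 and 433 CPM in Pd1cKO-Tie2. Markers of microglia and macrophages, which carry CD45, were lower without overlap for 6 of 8, also beside 18.1%, and 0 of the 8 met the criterion. They summed to 1826 and 2269 against 685 and 1588 CPM. Pericyte and smooth muscle markers summed to 5535 and 3575 against 3681 and 3683 CPM, and neuronal ones to 873 and 1251 against 1050.0 and 907 CPM. Neutrophil markers stood at 908 CPM in Pd1fl/fl replicate 1 and at 1.17 to 55.4 CPM in the other libraries. Of 3 tested neutrophil markers, 2 met the criterion as lower, although 0 were lower without overlap. Lymphatic markers summed to 65.8 and 14.9 CPM in Pd1fl/fl and 50.5 and 8.35 CPM in Pd1cKO-Tie2, and 1 of the 3, Pdpn, was lower without overlap. Erythroid markers summed to 548 to 1063 CPM, oligodendrocyte lineage ones to 100.5 to 193 CPM and fibroblast ones to 14.9 to 65.3 CPM. No marker in these lists was at 0 in all libraries, and the part of these cells in the differences of the VEGF genes was not tested. Plvap, a marker of fenestrated endothelium that was picked out after its values were seen, was at 4.30 and 5.92 CPM in Pd1fl/fl and at 24.4 and 9.38 CPM in Pd1cKO-Tie2. It met the criterion (log2 1.73, adjusted p = 0.753, edgeR), but not without Pd1cKO-Tie2 replicate 1 (0.88) or without Pd1fl/fl replicate 1 (1.52), nor after scaling to the endothelial markers (1.37).

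**Figure D4:**
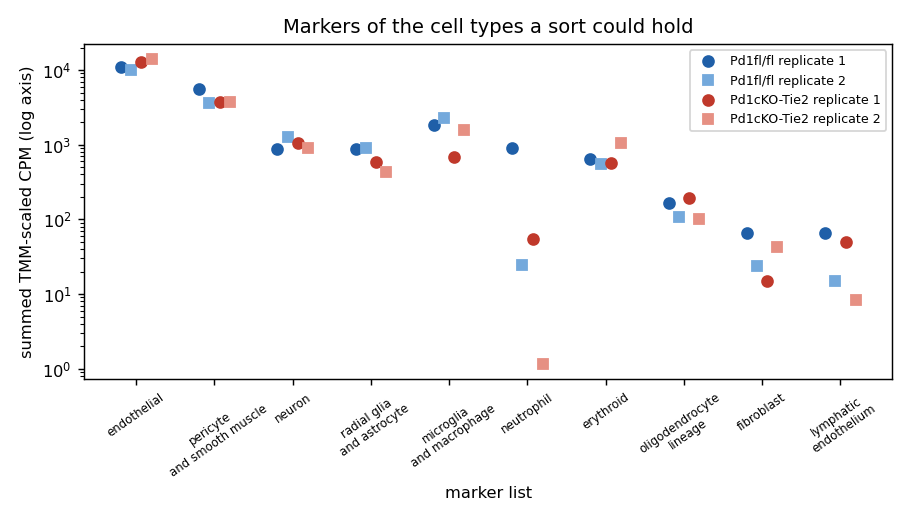
Summed TMM-scaled CPM of each marker list in each library, without the single-gene Plvap list, on a log axis. Endothelial markers are highest and lie between 9943 and 13984, with both Pd1cKO-Tie2 libraries above both Pd1fl/fl libraries, and the neutrophil list spans 1.17 to 908.

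Ratios between members within a library do not depend on how libraries are scaled, and 9 pairs were compared. Per read of Kdr, Flt1 gave 0.469 and 0.505 reads in the controls and 0.523 and 0.534 in the knockouts. The ratio of Flt1 to Kdr reads thus differed by 0.12 on the log2 scale without overlap (exact permutation p = 0.3333, the smallest possible, and 1 after adjustment over the 9 pairs). The difference was 0.065 without Pd1fl/fl replicate 1 and 0.17 without Pd1fl/fl replicate 2. Nrp1 gave 0.202 and 0.305 reads per Kdr read in the controls and 0.194 and 0.263 in the knockouts, with overlap. Nrp2 per Nrp1 read was 0.303 and 0.180 in the controls and 0.3334 and 0.298 in the knockouts, with overlap, and Pd1fl/fl replicate 2 alone stood low. Plxnd1 per Nrp1 read ran from 0.494 to 1.09 with the genotypes interleaved. Flt4 per Kdr read lay between 0.0714 and 0.0929 in the 4 libraries. Set against Pecam1 (CD31, the antigen used in the sort), Kdr gave 2.58 and 2.61 reads in the controls and 3.03 and 2.22 in the knockouts. The knockout libraries fell on either side of the controls, and the mean log2 difference was -0.0018. Flt1 per Pecam1 read was 1.21 and 1.32 against 1.58 and 1.18, and Nrp1 per Pecam1 read 0.523 and 0.794 against 0.587 and 0.584, also overlapping. Vegfc per Vegfa read was 68.2 and 54.2 against 49.0 and 35.4, a log2 difference of -0.55 that rests on the few Vegfa counts and becomes 0.32 with a prior count of 5 in place of 0.5.

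Beyond the members, genes that carry, restrain or answer VEGF signaling were taken from 5 lists chosen by function. Changes in these lists are on the TMM scale, on which the 12 endothelial markers had a median log2 fold change of 0.36. In the list of receptor signal relay, 1 of 19 tested genes met the criterion and it was lower, against 4.02% of all tested genes, and the list's median log2 fold change was 0.23. Prkca, a protein kinase C downstream of VEGFR2, fell from 8.67 and 16.1 CPM in Pd1fl/fl to 4.23 and 1.17 CPM in Pd1cKO-Tie2. Its log2 fold change was -2.18 (standard error 0.84, adjusted p = 0.753, edgeR). The call was lost without Pd1fl/fl replicate 2 (-1.67) and without Pd1cKO-Tie2 replicate 2 (-1.55). Yes1, a Src family kinase with the smallest p of the list, was at 40.8 and 50.2 CPM in Pd1fl/fl and at 75.7 and 71.6 CPM in Pd1cKO-Tie2, 1.62-fold, which is under the 2-fold limit.

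In the list of receptor trafficking and phosphatases, 0 of 11 met the criterion, against 4.02% of all tested genes, and the median was 0.15. Ptprb, the phosphatase VE-PTP that restrains VEGFR2 and Tie2, had the smallest p of the list. It was at 479 and 460.3 CPM in Pd1fl/fl and at 608 and 647 CPM in Pd1cKO-Tie2, without overlap (log2 0.42, standard error 0.13, adjusted p = 0.735, edgeR). Grb10, an adaptor that binds VEGFR2, was at 231 and 212 against 252 and 262 CPM.

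Transcripts that VEGF signaling raises did not share a direction. Of 9 tested, 0 met the criterion, against 4.02% of all tested genes. The fitted change was above 0 for 4 of them, against 49.6% of all tested genes, and the median log2 fold change was -0.031. Apln, the tip cell peptide apelin, was at 191 and 127 CPM in Pd1fl/fl and at 238 and 256 CPM in Pd1cKO-Tie2 (log2 0.64, standard error 0.23, adjusted p = 0.753, edgeR). Esm1, another tip cell transcript, lay the other way at 6.52 and 8.03 against 3.31 and 4.03 CPM (log2 -0.99, standard error 0.69). Without overlap, 1 of the 9 was higher (Apln) and 2 were lower, Esm1 among them, against 17.7% and 18.1% of all tested genes. Neither Apln nor Esm1 met the criterion.

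Of the semaphorins and A-type plexins, 8 of 11 were tested and 0 met the criterion (median 0.16), against 4.02% of all tested genes. Sema3g, an arterial semaphorin that binds neuropilins, was at 3.26 and 11.8 CPM in Pd1fl/fl and at 2.97 and 0.806 CPM in Pd1cKO-Tie2. Plxna1 was at 13.8 and 14.5 against 26.9 and 18.1 CPM. Sema3e, the ligand of Plexin-D1, had 123 counts in Pd1cKO-Tie2 replicate 1 and 0 in the other 3 libraries, and Sema3d was counted 90 times in Pd1fl/fl replicate 1 and never elsewhere; both were named after their values were seen. In ligand supply and processing, 9 of 10 were tested and 0 met the criterion (median 0.049), also beside 4.02% of all tested genes. Egln1, the oxygen sensor that marks HIF proteins for decay, was at 46.4 and 30.4 CPM in Pd1fl/fl and at 49.5 and 69.9 CPM in Pd1cKO-Tie2. Adamts3, the protease that activates VEGF-C, was counted 36 and 24 times in the controls and 11 and 0 times in the knockouts. Vegfd, the remaining ligand, named with its values in view, had 0 and 15 counts against 2 and 0 and did not pass the filter. A count of 0 allows up to 3 counts, or 0.208 CPM in Pd1fl/fl replicate 1 and 0.220 CPM in Pd1cKO-Tie2 replicate 2.

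**Figure D5:**
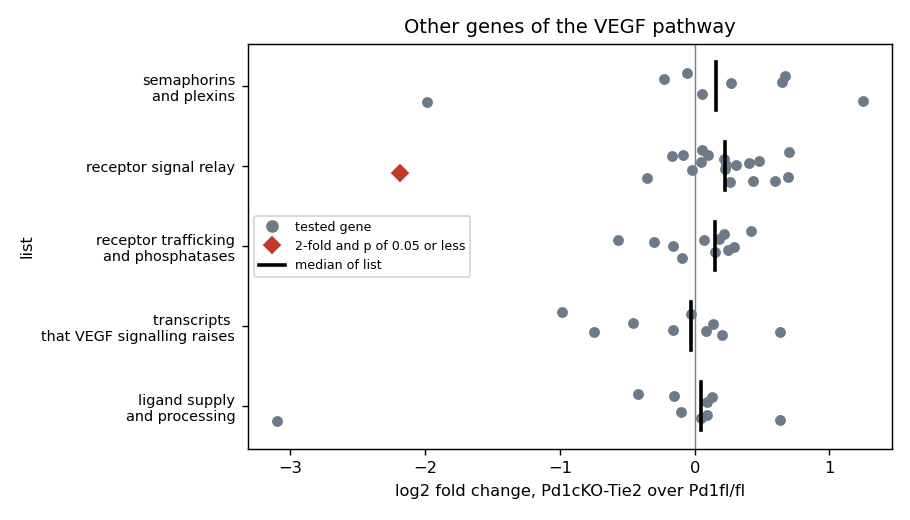
Log2 fold change (x axis, Pd1cKO-Tie2 over Pd1fl/fl) of each tested gene in the 5 pathway lists, with black bars for the medians and a red diamond for the 1 gene past the criterion, Prkca at -2.18. The medians lie between -0.031 and 0.23.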

How the data were processed

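RNA of brain endothelial cells at postnatal day 0 was sequenced by the authors. They deposited 4 tables, each with the raw read counts of 1 Pd1cKO-Tie2 and 1 Pd1fl/fl library, and these counts are whole and not normalized. The submitters' processing notes name Bowtie2 2.2.3, TopHat2 2.0.12, HTSeq 0.6.0 and build mm9, but the gene positions in the tables are those of GRCm38 (90.3% of 21519 genes equal GENCODE M21). The use of strand is not given in the sources used here. The tables also hold scaled values and the authors' fold changes and p-values for each pair, which were not used. The 4 tables were joined by Ensembl identifier, with 0 entered where a table left a gene out. In 2 tables, 10 broken lines in all were skipped.

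Genotypes were compared with the quasi-likelihood test of edgeR 4.0.16 (R 4.3.3) on all 4 libraries without a covariate, after filterByExpr (15909 genes) and TMM scaling. The standard error of a fold change was derived from its F statistic, and p-values were adjusted by Benjamini-Hochberg across every tested gene. The criterion (at least 2-fold, p of 0.05 or less) is that of the study's methods. Alternatives were DESeq2 1.42.0, voom of limma 3.58.1, other filters and scalings, and each library left out. The likelihood ratio test of edgeR was added after seeing the data. Ratios took a prior count of 0.5. Tests were tried on simulated data. Named genes were the 10 members and, in each pathway list, those past the criterion and the 2 with the smallest p. Other named genes are marked as such in the text. The members and lists were chosen with earlier results of these data known. Exon lengths are unions of GENCODE M21 exons, and promoters come from RefSeq (GRCm38.p6), which held all 10 genes. Total counts ranged from 13714374 to 24146115, and intervals cover counting error only.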

Additional observations from a re-analysis of the deposited data

How the results depend on the processing

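The count of VEGF genes past the criterion was 0 under every alternative that was run, with 0 adjusted p under 0.05 among them. The count over all genes was 640 and lay between 689 and 877 with each library left out in turn. The balance of directions turned without Pd1fl/fl replicate 2 (486 higher and 391 lower), and without Pd1cKO-Tie2 replicate 1 it was 141 higher and 574 lower. Of the other settings, scaling to the 12 endothelial markers moved it furthest, to 1001 genes (136 higher and 865 lower, against 224 and 416). With that scaling the log2 fold changes of Kdr (-0.089), Flt4 (-0.12) and Nrp1 (-0.26) reversed, and the median of the members went from 0.39 to 0.025, which follows from how the scaling is built, since the markers were themselves higher in Pd1cKO-Tie2. Under the other scalings the median of the members lay between 0.33 and 0.39. With each library left out in turn it was 0.40 to 0.45, and Nrp1 alone changed direction (lowest -0.14 without Pd1fl/fl replicate 1, highest 0.45 without Pd1fl/fl replicate 2). Flt4 ranged from 0.079 to 0.44 and Plxnd1 from 0.21 to 0.63, both lowest without Pd1fl/fl replicate 2 and highest without Pd1fl/fl replicate 1. A fit that leaves out a library has a lone sample in an arm, which is assumed to vary like the other genotype. No paired analysis was possible because the label numbers of the genotypes share only 1 number.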
